A study of Mus musculus with 10 samples.

Results

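The genes described here encode 10 proteases of the lysosome, namely the cathepsins Ctsa, Ctsb, Ctsc, Ctsd, Ctsf, Ctsh, Ctsl, Ctss and Ctsz and the asparaginyl endopeptidase legumain, Lgmn. They were chosen by name, and all 10 were among the 24453 gene symbols of the deposited table. All 10 passed the filter on low values, at least 10 RPM in at least 2 libraries, which left 4151 genes in all. RPM is a read number scaled to 1 total that all libraries share.

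Transcripts were profiled in microglia, the tissue macrophages of the central nervous system, taken from C57bl6 mouse brain by magnetic bead sorting. All mice were untreated, and the 10 libraries formed 4 groups in 2 experiments. The age experiment held 3 libraries from mice of 15 months (aged) and 3 from mice of 10 weeks (young). The other experiment held 2 libraries labelled Rab7 deltaMG and 2 labelled Rab7 Control, from mice of 3 months. The series describes the former as null mutants of Rab7, whose product is a small GTPase that directs late endosomes to lysosomes. The allele and the promoter that drives the deletion were not given in the sources used here. The labels tie no library to an animal of its own, and each p-value therefore measures a spread between libraries that may be technical.

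Cathepsins are made as inactive precursors, sorted to endosomes largely through mannose 6-phosphate receptors, and activated in the acidic lumen of the lysosome. Most are cysteine proteases, while cathepsin D is an aspartic and cathepsin A a serine enzyme. Endopeptidases such as cathepsins S, L, B and D cut within proteins, and exopeptidases such as cathepsins C, H and Z trim their ends. Legumain cuts after asparagine and processes several cathepsins to their mature forms. Cystatins inhibit the cysteine cathepsins. In microglia these enzymes degrade engulfed material, and cathepsin S is known for trimming the invariant chain of MHC class II.

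The labels of the Rab7 experiment were not supported by the target transcript. Rab7 was at 64.2 and 67.5 RPM in control-labelled libraries and at 72.2 and 79.4 RPM in the libraries labelled deltaMG (log2 fold change 0.20, standard error 0.20, limma adjusted p = 0.668). The table gives 1 value per gene, so that reads from any exon still transcribed in a mutant are part of it. These groups are therefore named by their labels throughout, and the direction of each difference depends on the labels being right. Both libraries labelled control also stood apart from the other 8 libraries in the protease genes, as described below. In the age experiment Xist, the RNA of the inactive X chromosome, was at 1715 to 1771 RPM in young and at most 0.940 RPM in aged libraries, so age and sex cannot be told apart. The 4 libraries of the Rab7 experiment held both Xist, at 924 to 1562 RPM, and Y-linked transcripts, at a sum of 9.11 to 25.8 RPM. All 11 microglial markers examined were present, with sums of 4149 to 6396 RPM per library. The 4 lymphocyte markers stayed below 1 RPM in all 10 libraries, as did 3 of 5 astrocyte and 3 of 5 neuronal markers. Only 1 of 5 oligodendrocyte markers (Mog) and 1 of 4 endothelial markers (Cldn5) did so. The oligodendrocyte markers summed to 17.7 to 27.6 RPM per library and the endothelial ones to 3.24 to 7.13 RPM.

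The promoters of the members were read first, because several members moved together. Windows of 300 bases around the start (RefSeq, GRCm38.p6) were found for 8 of the 10 genes, 10 windows in all; Ctsb and Ctsh had none. Motifs were searched on both strands. GTCACGTG holds the E-box CACGTG and forms most of the CLEAR element, the site bound by TFEB and related regulators of lysosomal genes. It was present in windows of Ctsa, Ctsd and Lgmn, and in 2.25% of all 32851 windows. The plain E-box CACGTG, which counts those 3 genes again, was present in 5 of 8 genes, with Ctsf and Ctsl in addition, and in 7.15% of all windows. The full CLEAR palindrome, GTCACGTG with AC after it, was in none of the members' windows and in 0.326% of all. GAGGAAGT, a sequence bound by the myeloid factor PU.1 and other Ets proteins, was present in Ctsc and Ctss and in 3.2% of all windows. The interferon-type repeat, GAAA given again after a gap of 2 bases, was present in Ctss and in 3.44% of all windows. Of the general promoter motifs, GGGCGG was in 6 of the 8 genes (35.7% of all windows), CCAAT in 3 (37.4%), TATAAA in 2 (13.6%) and the AP-1 site TGACTCA in none (5.2%). A match describes letters only and shows no binding.

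The 6 stretches below are shown because they carry these matches in 3 genes that passed the test in the Rab7 experiment (Ctss, Ctsl, Ctsd) and in 2 that hold GTCACGTG and did not pass the test (Ctsa, Lgmn). Each runs 5′ to 3′ on the gene's strand, with the match in capitals.
Ctss, Ets match in capitals, chr3:95526686-95526791, plus strand: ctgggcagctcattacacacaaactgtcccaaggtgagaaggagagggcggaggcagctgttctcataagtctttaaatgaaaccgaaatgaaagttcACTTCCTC
Ctsl, E-box in capitals, chr13:64370741-64370770, minus strand: gcggcgttagaagcCACGTGctgatctaaa
Ctsd, upstream GTCACGTG match, chr7:142388039-142388077, minus strand: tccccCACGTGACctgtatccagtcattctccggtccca
Ctsd, downstream GTCACGTG match, chr7:142387908-142387937, minus strand: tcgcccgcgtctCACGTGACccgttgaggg
Ctsa, both GTCACGTG matches in capitals, chr2:164833756-164833785, plus strand: actGTCACGTGatgcagatgctCACGTGAC
Lgmn, GTCACGTG match in capitals, chr12:102439093-102439192, minus strand: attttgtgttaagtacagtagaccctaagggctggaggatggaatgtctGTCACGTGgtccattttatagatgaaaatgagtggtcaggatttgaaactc

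The stretch of Ctss runs from 100 bases before the RefSeq start to 6 bases past it, and the GAAA repeat lies before the Ets match. That of Ctsa reaches from 17 bases before the start to 13 past it, so its matches lie on either side of the start. The Lgmn stretch is the 100 bases before 1 of 2 starts of that gene, and the Ctsl stretch and the upstream one of Ctsd begin 250 bases before the start. The Ctsd stretch named downstream runs from 110 to 81 bases before the start, so both Ctsd matches lie before it. Of the 3 genes with GTCACGTG in a window, Ctsd was called in the Rab7 experiment below, and Ctsa and Lgmn were not; the called genes Ctss, Ctsl and Ctsz had no match to it.

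The Rab7 experiment asked how microglial transcripts differ between the libraries labelled deltaMG and those labelled control. Of the 10 protease genes, 5 were lower in the libraries labelled deltaMG and none was higher, at a Benjamini-Hochberg adjusted p under 0.05 from limma over 4151 genes. Of all tested genes 3.78% were called, and 2.58% of all tested genes were called as lower. The 5 genes were Ctss, Ctsl, Ctsz, Ctsb and Ctsd, with fitted falls of 2.65-fold, 2.36-fold, 2.18-fold, 1.96-fold and 1.92-fold. The members' median log2 fold change was -0.73, against -0.02 over all tested genes. In bulk RNA, fewer cells of a type and less RNA per cell cannot be told apart. The fitted scale is log2(RPM + 1), on which the change of scarce genes is understated.

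Among the endopeptidases, cathepsin S showed the greatest difference. Ctss (chromosome 3, 95526786 to 95556403, plus strand, GRCm38) was at 1947 and 1219 RPM in the 2 control-labelled libraries, against 505 and 666 RPM in the 2 labelled deltaMG. Its level was thus high in both libraries labelled control, which also differed from each other by more than any other pair of replicates did for this gene. Ctss fell with a log2 fold change of -1.41 (standard error 0.21, limma adjusted p = 0.00169). The young libraries held 562, 454 and 563 RPM, and the range of the libraries labelled deltaMG overlapped theirs. The mean of the libraries labelled control was 3.01 times the young mean.

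Ctsl encodes cathepsin L, a broad endopeptidase (chromosome 13, 64359337 to 64370890, minus strand, GRCm38). It was at 460 and 322 RPM in control-labelled and 146 and 180 RPM in deltaMG-labelled libraries. The groups did not overlap, and Ctsl fell with a log2 fold change of -1.24 (standard error 0.18, limma adjusted p = 0.00169). Ctsb encodes cathepsin B, an endopeptidase that also removes dipeptides from the carboxyl end (chromosome 14, 63122462 to 63145923, plus strand, GRCm38). It was at 745 and 661 RPM with the control label and 317 and 403 RPM with the deltaMG label, a log2 fold change of -0.97 (standard error 0.15, limma adjusted p = 0.00169). The young libraries lay close together for Ctsb, at 298 to 308 RPM, below all libraries of the Rab7 experiment.

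Ctsd encodes cathepsin D, the main aspartic protease of lysosomes (chromosome 7, 142375911 to 142388038, minus strand, GRCm38). It was at 2096 and 2313 RPM in control-labelled and 964 and 1361 RPM in deltaMG-labelled libraries. Ctsd fell with a log2 fold change of -0.94 (standard error 0.21, limma adjusted p = 0.0194). Unlike Ctss and Ctsl, it was higher in control replicate 2 than in control replicate 1.

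Of the exopeptidases, only Ctsz passed the test. Ctsz encodes cathepsin Z, a carboxypeptidase (chromosome 2, 174427493 to 174439039, minus strand, GRCm38). It was at 168 and 140 RPM with the control label and 65.1 and 74.5 RPM with the deltaMG label, a log2 fold change of -1.13 (standard error 0.15, limma adjusted p = 0.00077). Ctsh, the aminopeptidase cathepsin H, was at 88.4 and 94.5 against 68.8 and 72.5 RPM (log2 fold change -0.37, 95% interval -0.66 to -0.08, limma adjusted p = 0.148). Ctsc encodes cathepsin C, which removes dipeptides from the amino end and activates the serine proteases of granules. It was at 130 and 118 against 113 and 112 RPM (log2 fold change -0.14, 95% interval -0.44 to 0.15, limma adjusted p = 0.635).

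The remaining 3 members did not pass the test either. Ctsa encodes cathepsin A, a carboxypeptidase that also protects beta-galactosidase and neuraminidase in a complex, and it was at 87.2 and 78.0 against 48.1 and 67.7 RPM. Its log2 fold change was -0.52, with a 95% interval of -0.92 to -0.13 and a limma adjusted p of 0.133. Lgmn was at 229 and 158 against 131 and 160 RPM, so that the groups overlapped (log2 fold change -0.39, 95% interval -0.85 to 0.07, limma adjusted p = 0.36). Ctsf, cathepsin F, was the least abundant member, at 23.6 and 19.9 against 18.6 and 20.8 RPM (log2 fold change -0.13, 95% interval -0.59 to 0.33, limma adjusted p = 0.819). Leaving out 1 library moved the log2 fold change of Lgmn between -0.66 (without control replicate 2) and -0.13 (without control replicate 1), and that of Ctsa between -0.76 (without deltaMG replicate 2) and -0.28 (without deltaMG replicate 1). The log2 fold change was below 0 for all 10 members, as it was for 52% of tested genes. For 8 members, all but Lgmn and Ctsf, both libraries labelled deltaMG were below both labelled control, as for 26.6% of tested genes.

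**Figure D1:**
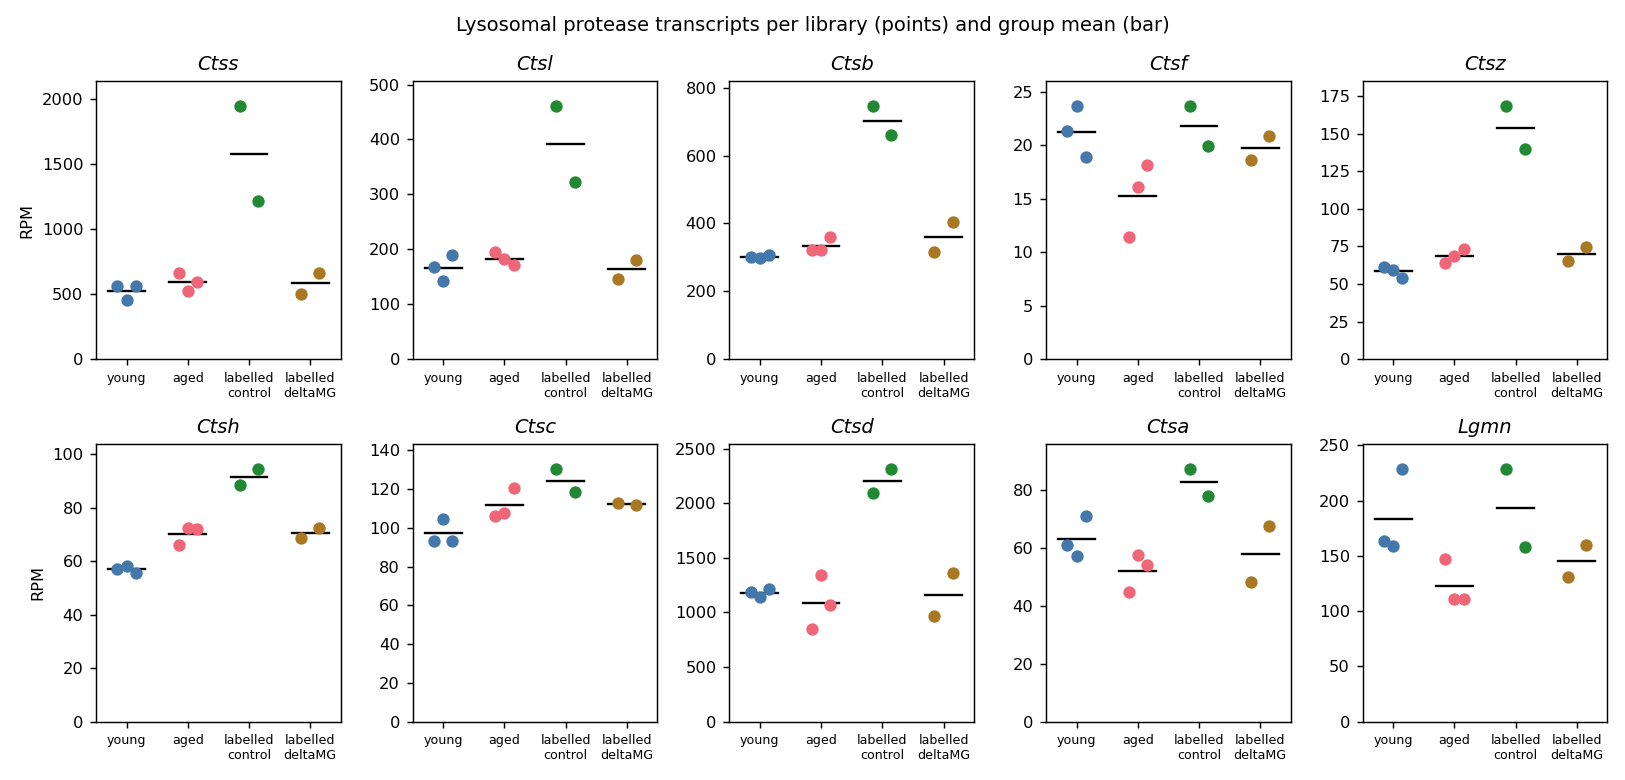
RPM of each protease gene (vertical axes, from 0) in each of the 10 libraries, with points for libraries and a bar for the group mean, for young (n = 3), aged (n = 3), labelled control (n = 2) and labelled deltaMG (n = 2). Both libraries labelled control lie above the other 8 for Ctss, Ctsl, Ctsb, Ctsz, Ctsh, Ctsd and Ctsa, and not for Ctsf, Ctsc and Lgmn.

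The plot of RPM by library shows which group departs from the rest. Both libraries labelled control were above all 8 other libraries, young and aged included, for 7 of the 10 genes, as they were for 14.5% of all tested genes. The exceptions were Ctsc, Ctsf and Lgmn, where at least 1 young or aged library reached the lower library labelled control. For Ctss, the lower library labelled control held 1219 RPM and the highest of the other 8 held 666 RPM. For Ctsz these values were 140 and 74.5 RPM, and for Ctsl 322 and 195 RPM. The libraries labelled deltaMG overlapped the young libraries for 6 of the 10 genes, and for Ctsb, Ctsc, Ctsh and Ctsz they lay above them. The share of all tested genes with such an overlap was not computed. The count of 6 is therefore not a result about these genes. The age and Rab7 experiments differ in more than genotype, so levels are set side by side across them without a test.

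The 10 genes summed to 5123 and 5975 RPM under the control label, to 2376 and 3118 RPM under the deltaMG label, to 2498 to 2800 RPM in young and to 2467 to 2795 RPM in aged libraries. Their share of the listed signal was 1.12% to 2.57% over all libraries. The microglial marker list summed to 5405 and 5108 RPM for control and 4936 and 6396 RPM for deltaMG, so that the sums overlapped, but its genes did not move alike. Cx3cr1, the fractalkine receptor of microglia, was at 398 and 437 RPM for control and at 965 and 1285 RPM for deltaMG (log2 fold change 1.41, limma adjusted p = 0.000158), and at 1068 to 1174 RPM in young libraries. It was thus lowest in both libraries labelled control. The purinergic receptor P2ry12 was at 1455 and 1242 against 881 and 1030 RPM (log2 fold change -0.50, limma adjusted p = 0.179). Both were chosen after their values were seen. Markers of neutrophils did, with 649 and 426 against 1673 and 1101 RPM for all 11 of 11 genes. Those of monocytes were at 94.3 and 59.1 against 219 and 164 RPM for 7 genes, none of them below 1 RPM in every library. The 6 border macrophage markers summed to 36.9 and 45.8 against 45.5 and 48.0 RPM. The part of these other cells in the protease differences was not tested.

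The member calls of the Rab7 experiment were fewest without control replicate 1. Leaving out any library of that experiment leaves 1 in its group, so a lost call cannot be told apart from a weaker test. With control replicate 1 left out, Ctss, Ctsl and Ctsb shared an adjusted p of 0.0537, at log2 fold changes of -1.07, -0.98 and -0.89, and of the 10 members only Ctsz was called. Ctsz passed in each of 10 fits that omitted 1 library, with 0.0349 as its highest adjusted p. Ctsd lost its call without control replicate 1, control replicate 2 or deltaMG replicate 1, with a highest adjusted p of 0.224.

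**Figure D2:**
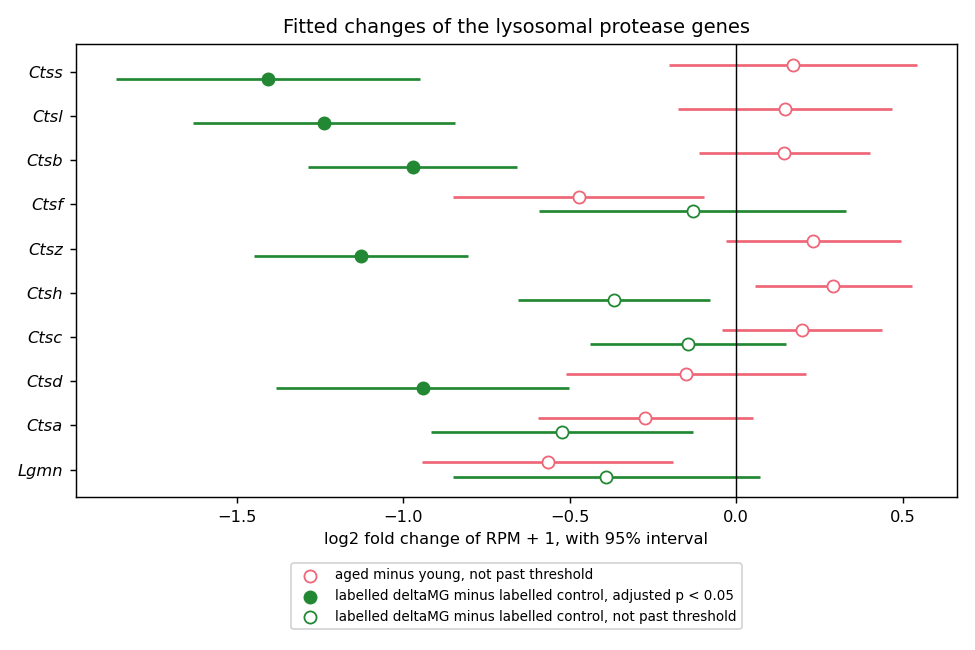
Log2 fold change of RPM + 1 (horizontal axis) for each protease gene (vertical axis), with its 95% interval, for aged minus young and for labelled deltaMG minus labelled control. Filled points have a limma adjusted p under 0.05: 5 genes in the Rab7 experiment, from -0.94 for Ctsd to -1.41 for Ctss, and none in the age experiment.

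The age experiment asked how aged and young microglia differ. None of the 10 protease genes was called by limma, while 6.14% of all tested genes were, and the members' median log2 fold change was 0.15, against -0.05 over all tested genes. Lgmn, Ctsf and Ctsh, 3 members, had an unadjusted p under 0.05, which 21.5% of all tested genes had. The ranges of aged and young libraries did not overlap for 6 members, as for 23.9% of tested genes. Of these 6, Ctsb, Ctsc, Ctsh and Ctsz were higher in aged libraries, 4 members where 8.41% of tested genes did so, and Ctsf and Lgmn were lower, 2 members where 15.5% did so.

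Lgmn (chromosome 12, 102394084 to 102439813, minus strand, GRCm38) was at 164, 159 and 229 RPM in young and at 147, 111 and 111 RPM in aged libraries. All aged libraries were below all young ones, yet the log2 fold change of -0.57 (95% interval -0.94 to -0.19) had a limma adjusted p of 0.0732. Ctsf was at 21.3, 23.6 and 18.9 RPM in young and at 11.4, 16.05 and 18.2 RPM in aged libraries (log2 fold change -0.47, 95% interval -0.85 to -0.10, limma adjusted p = 0.128). Ctsh was at 57.2, 58.4 and 55.6 RPM in young and at 66.1, 72.3 and 71.9 RPM in aged libraries. Its 2 groups were tight and apart, with a log2 fold change of 0.29 (95% interval 0.06 to 0.53, limma adjusted p = 0.132).

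For the remaining members, the 95% interval of the change with age included no change. Ctsd was at 1187, 1142 and 1219 RPM in young and at 847, 1339 and 1065 RPM in aged libraries, so that the aged libraries reached to either side of the young ones. Its log2 fold change of -0.15 (95% interval -0.51 to 0.21, limma adjusted p = 0.675) was 0.015 without aged replicate 1. Ctss was at 663, 521 and 595 RPM in aged libraries, overlapping the young range, with a log2 fold change of 0.17 (95% interval -0.20 to 0.54, limma adjusted p = 0.64). Ctsl gave 0.15 (-0.17 to 0.47), Ctsb 0.14 (-0.11 to 0.40), Ctsz 0.23 (-0.03 to 0.50), Ctsc 0.20 (-0.04 to 0.44) and Ctsa -0.27 (-0.60 to 0.05) as log2 fold change and 95% interval. None of these intervals reached a fall or a rise of the size that Ctss showed in the Rab7 experiment. The sum of neutrophil markers ran from 521 to 1317 RPM in young libraries and was 1585, 897 and 4089 RPM in aged replicates 1 to 3, and their part in these values was not tested.

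Whether the 2 experiments differ in a gene's change was tested as a difference of effects in the same fit. That difference passed for 5 of 10 members, where 4.79% of tested genes passed and 2.67% passed with a difference below 0: Ctsz at -1.36 (limma adjusted p = 0.000751), Ctsb at -1.12 (0.00316), Ctsl at -1.39 (0.00335), Ctss at -1.58 (0.00352) and Ctsh at -0.66 (0.0429), on the log2 scale. Ctsh was thus called here and in neither experiment alone, and its call was lost when any 1 of the 10 libraries was left out (adjusted p 0.0561 to 0.159). For Ctsd the difference was -0.79 with an adjusted p of 0.111, so its change was not shown to differ between the experiments.

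**Figure D3:**
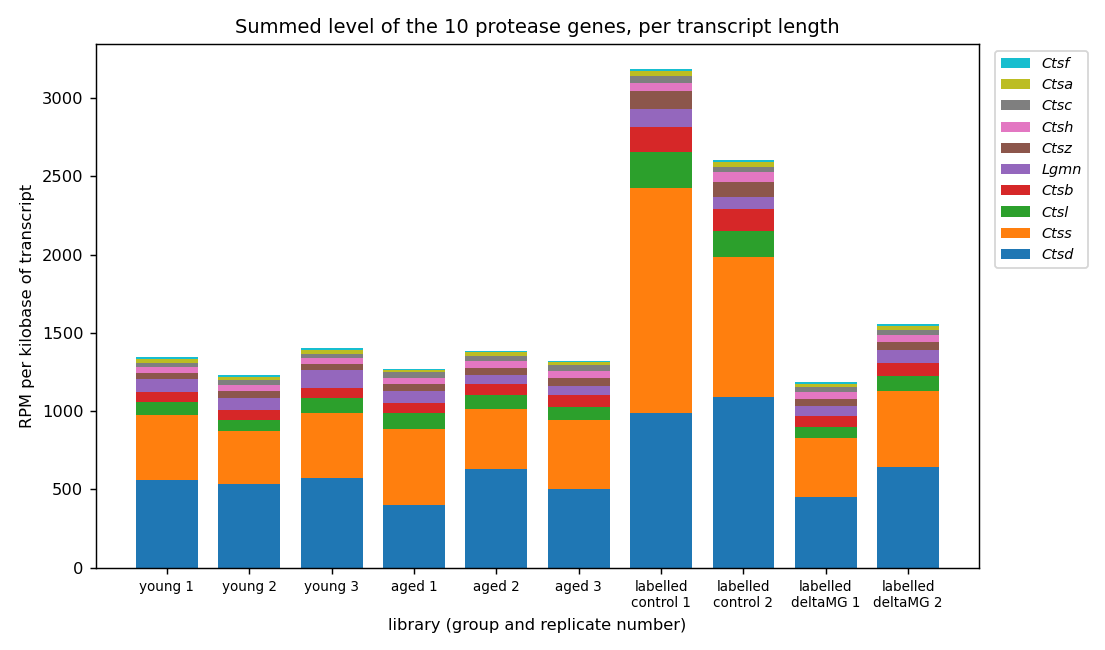
RPM per kilobase of transcript (vertical axis, from 0) of the 10 protease genes, stacked for each library (horizontal axis). The libraries labelled control reach 3186 and 2602, and the other 8 lie between 1184 and 1557, with Ctsd and Ctss forming most of every bar.

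Levels were compared between genes only after division by transcript length. Per kilobase, Ctsd and Ctss dominated in every group, and together with the other 8 they summed to 1326 ± 87.5 (SD, n = 3) in young, 1326 ± 57.8 (SD, n = 3) in aged, 2894 ± 413 (SD, n = 2) in labelled control and 1370 ± 264 (SD, n = 2) in labelled deltaMG libraries. In young libraries Ctsd stood at 556 ± 18.3 RPM per kilobase (SD, n = 3), or 42.0% of the sum, and Ctss at 389 ± 46.1 (SD, n = 3), or 29.2%. Among 19848 genes with a length, Ctsd ranked between 3 and 10 and Ctss between 3 and 12 over the libraries of all groups.

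The order below these genes was, in young libraries, Lgmn at 92.3 RPM per kilobase, Ctsl at 84.2, Ctsb at 63.6, Ctsz at 40.6, Ctsh at 35.3, Ctsc at 30.2, Ctsa at 24.9 and Ctsf at 10.7. Of these neighbours only Lgmn and Ctsl overlapped in range. In aged libraries the ranges of Ctsd and Ctss overlapped, as did those of Ctsb and Lgmn and of Ctsz and Ctsh. In the libraries labelled control Ctss was at 1168 and Ctsd at 1036 RPM per kilobase, with overlapping ranges. As group means, Lgmn held 6.93% of the sum in young, 4.69% in aged, 3.33% in labelled control and 5.36% in labelled deltaMG libraries. The group means of the share of Ctsb stayed between 4.81% and 5.55%. The share of Ctss was 45.1% and 34.6% in the libraries labelled control and 31.5% and 31.6% in those labelled deltaMG.

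Other genes of the lysosome were examined from lists. Of 10 further lysosomal proteases in the table, 4 were tested and none was called in either experiment. Of all tested genes 3.78% were called in the Rab7 experiment and 6.14% with age. The untested Ctse, Ctsg, Ctsk, Ctsw, Napsa and Dpp7 reached at most 9.36 RPM. Tpp1, a tripeptidyl peptidase, was at 153 and 148 RPM for control against 90.4 and 130 RPM for deltaMG (limma adjusted p = 0.128). Scpep1, a serine carboxypeptidase, had a log2 fold change of -0.57 (limma adjusted p = 0.243), and Prcp, a prolylcarboxypeptidase, 0.08 (0.892). With age Ctso, cathepsin O, had a log2 fold change of -0.25 (0.41), Scpep1 0.37 (0.336) and Tpp1 -0.07 (0.813).

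Among the cystatins 2 of 7 were tested. Cst7, which encodes cystatin F, an inhibitor of cathepsin C and other cysteine cathepsins, was at 17.2 and 24.96 RPM in control-labelled and 0.717 and 2.17 RPM in deltaMG-labelled libraries. It reached 10 RPM in these libraries labelled control alone and passed the filter through them, so its difference in the Rab7 experiment is given as values without a test. With age Cst7 rose, from 0.144 to 0.946 RPM in young to 2.73 to 5.46 RPM in aged libraries (log2 fold change 1.54, limma adjusted p = 0.0409). That call was lost in 7 of the 10 fits that omit 1 library, with adjusted p up to 0.132 without aged replicate 3. It was also lost with the replicate block (0.132), with the age groups fitted alone (0.0668) and with a pseudocount of 5 (log2 fold change 0.63, adjusted p 0.0627), while a pseudocount of 0.1 gave a log2 fold change of 2.59. Cst3, the abundant secreted cystatin C, was at 2050 and 1644 against 1129 and 1468 RPM in the Rab7 experiment (log2 fold change -0.51, limma adjusted p = 0.106). It was at 1148 to 1267 RPM in young and 847 to 910 RPM in aged libraries (log2 fold change -0.46, limma adjusted p = 0.0585).

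Of 18 tested lysosomal hydrolases and cofactors, 5 were lower in the libraries labelled deltaMG and none was higher. Of all tested genes 2.58% were called as lower there. The median log2 fold change of the 18 was -0.61. That median includes Naglu, which is named after its values were seen. With the control label Naglu held 14.9 and 10.2 RPM, against at most 8.20 RPM elsewhere. It entered the test on those values alone, so its fall (log2 fold change -0.999, not called) carries no weight here. The median without Naglu was not computed. Npc2, a cholesterol carrier of the lysosome, was at 155 and 121 against 54.5 and 69.4 RPM and fell by 1.14 on the log2 scale (limma adjusted p = 0.00181). Hexa, a lysosomal glycosidase subunit, fell by 0.98 (0.0036), and Gm2a, the GM2 activator, fell by 0.70 (0.0193). The other two, Man2b1 and Ppt1, are named after their values were seen. With age 1 of the 18 was called, where 6.14% of all tested genes were called. It was the arylsulfatase Arsb, which fell at a log2 fold change of -0.54 (limma adjusted p = 0.0149, and 0.0889 without young replicate 1). Gm2a had a log2 fold change of 0.44 there (0.0509).

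Of 7 tested lysosomal membrane proteins, 3 were lower in the libraries labelled deltaMG, where 2.58% of all tested genes were called as lower. They were Lamp1, a major membrane glycoprotein, at a log2 fold change of -0.86 (limma adjusted p = 0.00355), the cholesterol transporter Npc1 at -0.68 (0.0439) and the tetraspanin Cd63. Cd63 was at 17.8 and 11.8 against 5.02 and 3.62 RPM and reached 10 RPM in the libraries labelled control alone, so that it passed the filter through them and its call supports nothing here. Of 12 tested subunits of the vacuolar ATPase, which acidifies the lysosome, 1 was called as lower. It was Atp6v1c1, which fell by 0.96 on the log2 scale (limma adjusted p = 0.00895). None of the 7 membrane proteins or 12 subunits was called with age, where 6.14% of all tested genes were called. Without control replicate 1 these calls were lost at adjusted p of 0.0605 for Npc2, 0.119 for Hexa, 0.261 for Gm2a, 0.105 for Lamp1, 0.182 for Atp6v1c1 and 0.327 for Npc1. Without deltaMG replicate 1 the calls of Hexa (0.0704), Gm2a (0.164), Lamp1 (0.0592), Atp6v1c1 (0.147) and Npc1 (0.37) were lost too, and without deltaMG replicate 2 that of Gm2a (0.0631). The Npc1 call was also lost without control replicate 2, young replicate 1, young replicate 2 or aged replicate 1, with adjusted p of 0.0623 to 0.145.

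The machinery that delivers the proteases was examined next. Of 10 tested genes for mannose 6-phosphate tagging, sorting and retromer none was called in either experiment, where 3.78% of all tested genes were called in the Rab7 experiment and 6.14% with age. Their median log2 fold changes were -0.14 for labelled deltaMG minus labelled control and -0.09 for aged minus young. M6pr, a mannose 6-phosphate receptor, was at 72.1 and 57.3 against 40.9 and 56.3 RPM (limma adjusted p = 0.315), and Gnptab, which makes the tag, at 15.8 and 14.8 against 9.92 and 12.6 RPM (0.276). Of the transcription factors that drive lysosomal genes, Tfeb and Tfec stayed at or below 5.21 RPM and were not tested. Mitf had a log2 fold change of -0.57 (limma adjusted p = 0.229) and Tfe3 of 0.08 (0.876) in the Rab7 experiment.

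Of 5 tested class II genes, the group whose invariant chain is cut by cathepsin S, 1 was higher in the libraries labelled deltaMG and none was lower. With age 3 were higher. Of all tested genes 3.78% were called in the Rab7 experiment and 6.14% with age, in either direction. Cd74, the invariant chain, was at 50.4 and 55.1 RPM in control-labelled and 117 and 129 RPM in deltaMG-labelled libraries. It rose with a log2 fold change of 1.21 (limma adjusted p = 0.0193), the direction opposite to that of Ctss in the same libraries. Not called there were H2-Aa (log2 fold change 0.97, limma adjusted p = 0.0718), H2-Ab1 (0.98, 0.113), H2-Eb1 (1.13, 0.176) and H2-DMa (-0.18, 0.699), the last 2 of them named after their values were seen. With age Cd74 rose by 1.71 on the log2 scale (limma adjusted p = 0.000463), H2-Aa by 1.62 and H2-Ab1 by 1.73, while Ctss was not called. Monocyte markers summed to 158, 198 and 78.0 RPM in young and to 251, 181 and 768 RPM in aged libraries, and their part in these rises was not tested. The Rab7 call of Cd74 was lost without any 1 of the 4 libraries of that experiment (adjusted p 0.1 to 0.205).

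**Figure D4:**
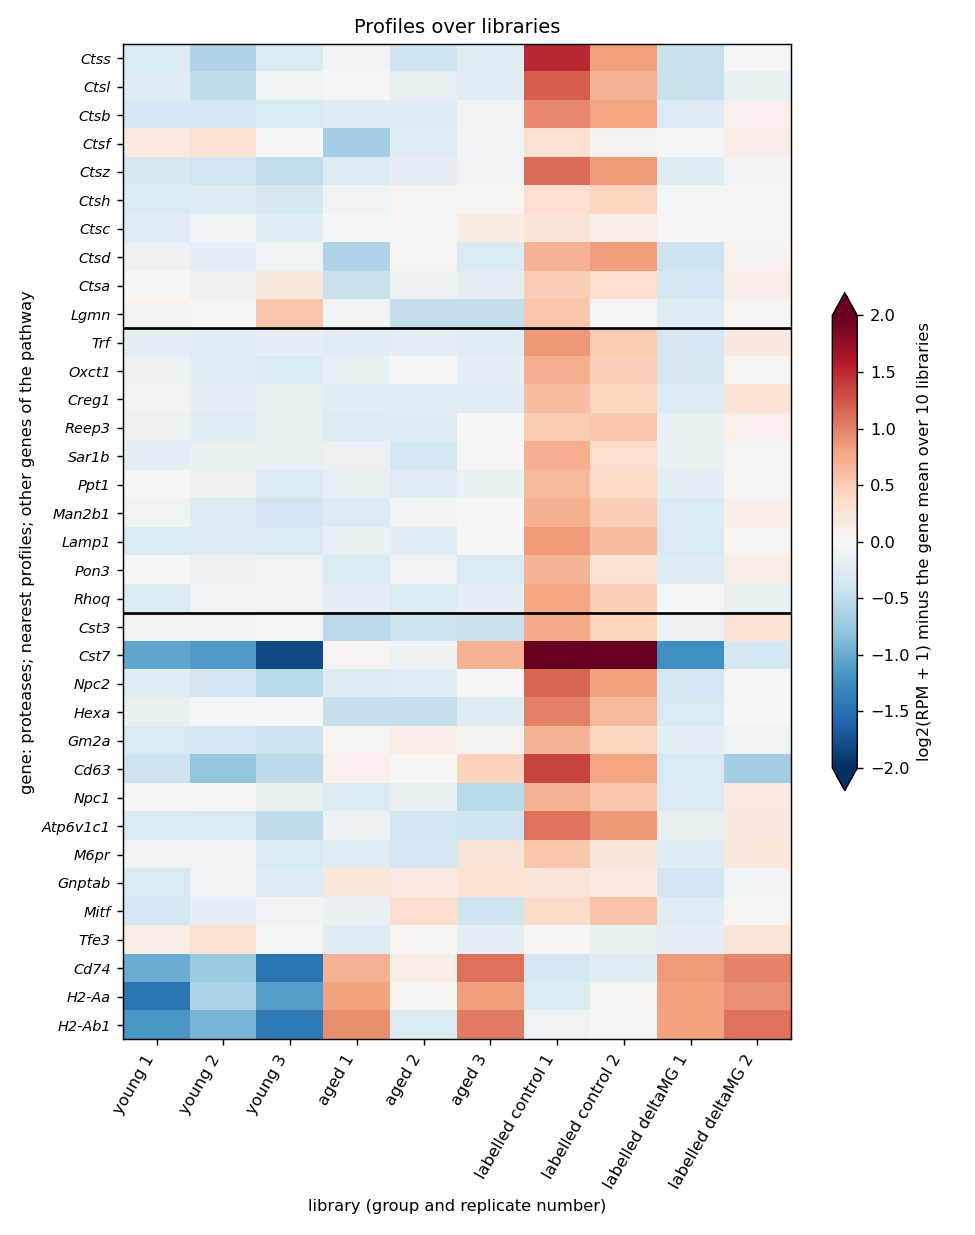
Log2(RPM + 1) minus the gene's mean over the 10 libraries (colour), for the 10 protease genes, the 10 genes of nearest profile and other genes of the pathway (rows) in each library (columns). The libraries labelled control are the highest columns for most rows of the upper blocks, and Cd74, H2-Aa and H2-Ab1 are higher in both libraries labelled deltaMG than in both labelled control; colours stop at 2 and -2, which Cst7 exceeds.

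The genes whose profile was nearest to the mean profile of the 10 proteases were found by the root mean square difference of centred log2(RPM + 1) values over the 10 libraries. In order, they were Trf at 0.0735, Oxct1 at 0.0874, Creg1 at 0.10, Reep3 at 0.103, Sar1b at 0.103, Ppt1 at 0.104, Man2b1 at 0.108, Lamp1 at 0.109, Pon3 at 0.113 and Rhoq at 0.113. Ppt1, a lysosomal thioesterase, Man2b1, a lysosomal mannosidase, and Lamp1 belong to the lists above. Trf, which encodes the iron carrier transferrin, was at 110 and 85.0 RPM in control-labelled libraries and at 47.2 to 67.6 RPM in the other 8. Taken singly, Ctss was nearest to Ctsl (0.156), Ctsb to Lamp1 (0.0888), Ctsz to Npc2 (0.0582), Ctsl to Mfsd1 (0.119) and Ctsd to Slc37a2 (0.142). Ctsa was nearest to Itgb5 (0.0896), Ctsc to Ppp4r2 (0.0762), Ctsf to Sphk2 (0.0671), Ctsh to Nfe2l2 (0.0934) and Lgmn to Prpsap2 (0.127).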

How the data were processed

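RNA from bead-sorted microglia was amplified with Ovation RNA-Seq System V2 and made into Ion Xpress Plus libraries, per the labels' protocols. GRCm38, mm10 and FastQC stand in the submitters' processing notes; aligner, counter, strand setting and scaling were not given in the sources used here. The authors deposited 1 value per gene and library, taken here as RPM because low values mostly fell on whole multiples of 1 step (0.101 to 0.164 RPM) above a constant of 0.0001. That step corresponds to 6098255 to 9907434 reads per library, and the scarcest member had 73 to 159 reads. Listed genes made up only 18.7% to 23.5% of that total, so each library had 1284420 to 1855066 reads on them. Most of the total used for RPM therefore lies outside the listed genes. Only 94.2% to 94.6% of values up to 500 reads were within 0.05 of a whole read, so no count model was used.

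Genes that reached 10 RPM in 2 or more libraries were fitted as log2(RPM + 1) with limma 3.58.1 (R 4.3.3), with 4 groups sharing 1 spread (residual df 6) and a prior variance that depends on the mean. A call is a Benjamini-Hochberg adjusted p under 0.05 over all 4151 genes. The fit was tested on simulated data with independent noise, which does not cover effects shared within a library or wrong labels. Positions come from GENCODE M21 (GRCm38). Lengths are of the longest coding transcript with a RefSeq match, of the best support level where there was one. Genes with a value that overlap a member on the other strand reached at most 4.30 RPM, and the 9 near-copies of Ctsl known from placenta at most 0.158 RPM. No value was given for Gm49369 and Gm49230, which share exons with Ctsd and Ctsl on the same strand. The same holds for Gm47123, on the other strand of Ctsl. Figures were drawn with matplotlib 3.10.9.

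Named genes were the 10 members, Rab7, up to 3 genes of smallest p per list and comparison, and the genes of nearest profile. One gene that met this rule is not reported here. The members and lists were chosen with earlier results of these data known, and the promoter motifs after the members' values were seen. Other filters, pseudocounts and scalings were tried, as were fits per experiment, with a replicate block, without the variance trend and without each library.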

Additional observations from a re-analysis of the deposited data

How the results depend on the processing

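The number of members called was 0 with age under all alternatives, 4 to 6 in the Rab7 experiment outside the fits that leave out a library, and 4 or 5 for the difference of effects. Leaving out each library gave 1 to 5 members in the Rab7 experiment. Over all genes it gave 96 to 422 calls with age, 25 to 317 in the Rab7 experiment and 71 to 264 for the difference of effects, against 255, 157 and 199 in the reported fits. With at least 50 RPM in at least 3 libraries, where fewer genes were tested, these were 116, 62 and 86. With own groups only they were 121 and 510. With median-of-ratios scaling the 131 higher and 124 lower calls with age became 221 and 107, and with equal totals 217 and 113; the cause was not tested.

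The labels share replicate numbers, and whether these pair the samples was not settled. Deviations of same-numbered aged and young libraries from their group means had correlations across genes of -0.14, -0.24 and -0.39. With 2 libraries a group, the deviations mirror each other, so the 2 Rab7 pairs gave 1 value, 0.12. Such centred values cannot decide the pairing. With the replicate number as a block there were 66, 69 and 102 calls, and 4 members in the Rab7 experiment, Ctsd at an adjusted p of 0.0688. Without the mean-dependent trend Ctsd had 0.0519.

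Signs changed only when a library was left out. The log2 fold change then ran from -0.31 to 0.015 for Ctsd, from -0.083 to 0.29 for Mitf and from -0.017 to 0.36 for Rab7 with age. It ran from -0.18 to 0.33 for Prcp and from -0.13 to 0.30 for Tfe3 in the Rab7 experiment. For the difference of effects it ran from -0.090 to 0.44 for Lgmn and from -0.16 to 0.22 for Rab7. None of these was called in the reported fit. With 2 libraries a group, leaving 1 out assumes that the remaining library varies like the other groups.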
